A study of Mus musculus with 24 samples.

Results

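Genes of the cell cycle and of DNA replication were followed across the conversion of mouse epiblast stem cells to definitive endoderm, with and without depletion of the transcription factor OTX2. The set was listed by gene name, with earlier results of these data known. It holds 39 of the 18205 genes in the deposited table. By role these were 11 genes of the replicative helicase and its loading, 4 of the replication fork and of nucleotide supply, and 9 G1 cyclins, G1 kinases and E2f1. The remainder were 2 kinase inhibitors, 4 mitotic cyclins and kinases, and 9 genes of chromosome segregation and proliferation. All 39 were found and all passed the filter on low values. Their values ran from 105 to 24065 normalised reads per library.

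Cells copy their genome once per division because the MCM helicase is loaded onto origins in G1, by ORC, CDC6 and CDT1, and is only activated in S phase, by CDC45 and GINS. Entry into S phase is driven by cyclin D with CDK4 or CDK6 and by cyclin E with CDK2, which release E2F factors from RB, and it is restrained by p21 (Cdkn1a) and p27 (Cdkn1b). Cyclin A and cyclin B with CDK1 then drive mitosis, in which the Aurora and Polo kinases, the BUB checkpoint proteins and CDC20 control chromosome segregation. Pluripotent cells of the epiblast are known for short G1 phases and rapid divisions.

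PolyA RNA was sequenced from 3 OTX2-dTAG-EGFP cell lines (7H, 7H1 and 7H2) on a BL6/129 hybrid background, in which OTX2 carries a tag that dTAG13 directs to degradation. Epiblast stem cells (EPI) were grown in N2B27 with 20 ng/ml activin A, 12.5 ng/ml FGF2 and 175 nM NVP. Primitive streak cells (PS) were made over 16 h in CDM with 40 ng/ml activin A and 3 µM CHIR, an activator of WNT signalling. Endoderm was then made with 100 ng/ml activin A and 100 nM LDN, a BMP receptor inhibitor, and harvested at 24 h (DE1) or 48 h (DE2). The lines received dTAG13 or the vehicle DMSO for 21 h from the EPI, PS or DE1 stage, and each of the 4 stages was harvested under both, which gave 8 groups of 3 libraries, 1 per line. All groups carry the tagged OTX2, and no untagged line was analysed here. The sources used here do not say whether each line is a clone or which addition belongs to which harvest. The 21 h exceed the 16 h of the streak step, so when depletion began relative to that step is not known. P-values speak for these 3 lines.

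Library totals were 24.4 to 27.2 M normalised reads. Summed markers fitted the stage labels in part. In DMSO, epiblast markers such as Pou5f1 were highest in EPI, and streak markers such as T went from 3819 to 9644 in EPI to 104083 to 110971 in PS. Endoderm markers such as Sox17 reached 127355 to 152810 in DE1. Streak markers were still at 93769 to 101988 in DE1 DMSO. Epiblast markers were at 61439.5 to 71594 in PS DMSO and at 62129.5 to 65749.5 in DE1 DMSO. Markers of fibroblasts were present in every group, at summed levels of 2646 to 17239. Several libraries stood apart. In DE2 DMSO the library of line 7H1 had 37 of the 39 genes below its group's mean, while 51.1% of all genes tested were below it. The PS libraries differed in how long genes were counted. Genes with over 8 kb of exon lay 0.156 log2 units below the group's mean (median) in the DMSO library of 7H2. They lay 0.123 below it in the dTAG13 library of 7H2 and 0.182 above it in that of 7H.

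As a share of all normalised reads, the 39 genes together took 0.952 to 0.955% in the EPI DMSO libraries, 0.845 to 0.877% in PS, 0.579 to 0.616% in DE1 and 0.422 to 0.525% in DE2. With dTAG13 the shares were 0.911 to 0.964%, 0.843 to 0.85%, 0.607 to 0.648% and 0.505 to 0.512%. The share was thus lower at each later stage under both treatments, and no library of a later stage reached a library of an earlier one. In bulk RNA, fewer dividing cells and less of each RNA per cell cannot be told apart. The lowest share in DE2 DMSO, 0.422%, was that of line 7H1. In DMSO, 18 genes had their highest mean in EPI and 19 in PS, while 32 had their lowest mean in DE2. The exceptions at the top were the inhibitors, since Cdkn1a was highest in DE2 and Cdkn1b in DE1.

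**Figure D1:**
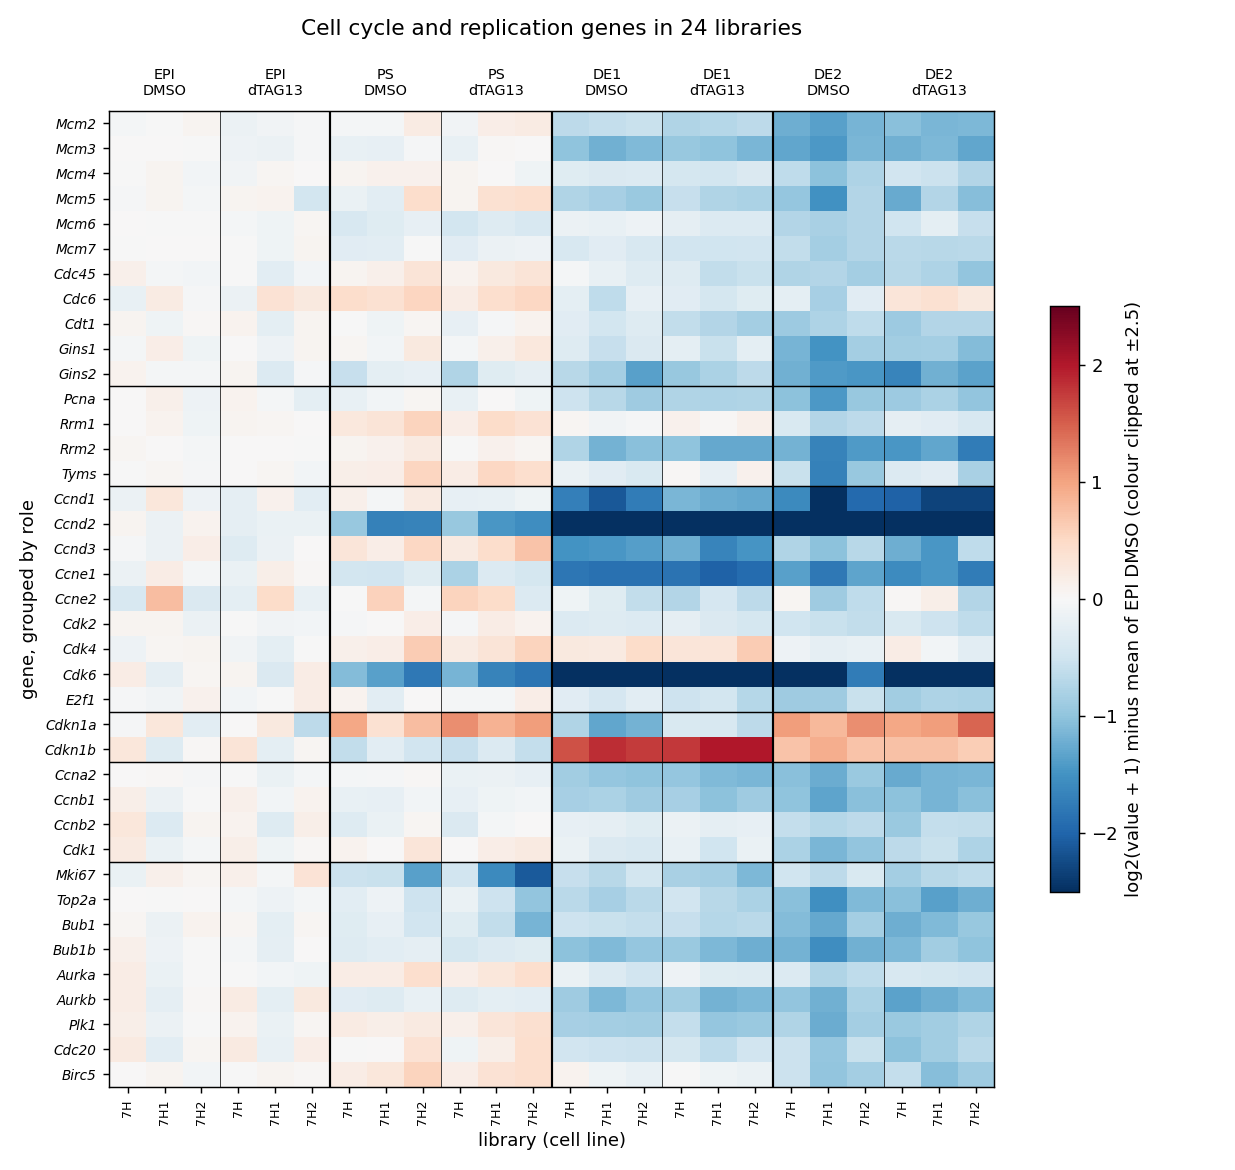
Each cell is the log2(value + 1) of a gene in a library minus the gene's mean in EPI DMSO, with the 24 libraries in columns by stage, treatment and cell line, and the 39 genes in rows by role; colour is clipped at ±2.5. Most rows turn blue in DE1 and DE2 (32 of 39 genes had their lowest DMSO mean in DE2), while Cdkn1b turns red in both and Cdkn1a is red in PS and DE2 but blue in DE1 DMSO.

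Stages were compared in DMSO with limma on log2(value + 1), over all 15037 genes that passed the filter, and calls were made at adjusted p under 0.05 (Benjamini-Hochberg). From EPI to PS, 3 of the 39 genes rose and 6 fell, against a background of 27.5% of all genes called, 14.6% higher and 12.8% lower. From PS to DE1, 1 rose and 30 fell, where 44.1% of all genes were called, 21.7% higher and 22.4% lower. The median log2 difference of the 39 genes over this step was -0.60, beside -0.01 for all genes tested. From DE1 to DE2, 4 rose and 21 fell, with a median of -0.41 and a background of 39.3%, 20.2% higher and 19.1% lower. Between the end points, EPI and DE2, 2 rose and 34 fell, with a median of -0.95 and a background of 53.9%, 27.4% higher and 26.6% lower. The genes not called between the end points were Ccne2, Cdk4 and Mki67. Successive steps share the libraries of the middle stage. The counts depended on single lines in the smaller steps, and the shares of all genes called fell as well. From EPI to PS, 5, 6 and 0 genes were called without 7H, 7H1 and 7H2, and 5 without the PS libraries of 7H2. Of all genes, 18.2%, 20.5%, 8.93% and 20.7% were called in these fits. From DE1 to DE2, 17, 14 and 20 were called without each line in that order, and 18 without the DE2 DMSO library of 7H1. The shares of all genes were 30.8%, 26%, 27% and 34.4%. From PS to DE1, 29, 26 and 22 were called, beside 36.4%, 32.6% and 31.4% of all genes.

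Of the 11 helicase and licensing genes, 9 fell from PS to DE1, 7 from DE1 to DE2 and all 11 between EPI and DE2. Of the last, Cdc6 was not called without 7H1, without 7H2 or without the DE2 DMSO library of 7H1 (limma, adjusted p = 0.4, 0.0587 and 0.153). From PS to DE1, Cdc45 was not called without 7H1, without 7H2 or without the PS libraries of 7H2 (limma, adjusted p = 0.0873, 0.282 and 0.0727). Nor was Gins1 without 7H, without 7H2 or without those libraries (0.0679, 0.0943 and 0.0624), or Gins2 without 7H1 or 7H2 (0.0511 and 0.191). Mcm3, a subunit of the MCM helicase (chr1:20802968-20820312, minus strand, GRCm38), read 9940.4, 9720.1 and 10967 normalised reads in PS (7H, 7H1 and 7H2 in this order, as throughout) and 5574, 4871 and 5271 in DE1. Every DE1 library was below every PS library, and the log2 difference was -0.96 ± 0.09 (SE; limma, adjusted p = 2.20e-08). Its difference from DE1 to DE2, -0.19 ± 0.09, was not called (limma, adjusted p = 0.0955). Mcm2, another subunit, read 12118, 12071 and 14516 in PS, 7946, 8327 and 8510.3 in DE1 and 5386, 4871 and 5614 in DE2. Its libraries did not overlap between these stages, and it fell over both steps, each time by 0.64 on the log2 scale (SE 0.09; limma, adjusted p = 5.91e-06 and 8.74e-06).

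Not all subunits of the hexamer followed this course. Mcm6 (chr1:128331590-128359664, minus strand) read 9622, 9533 and 9506 in EPI, 7281, 7777 and 8270.1 in PS, 8684, 8449 and 8786 in DE1 and 5741, 5428 and 5737 in DE2. Its PS libraries were below both its EPI and its DE1 libraries, and its DE2 libraries were the lowest of all. It fell from EPI to PS by 0.30 ± 0.08 (limma, adjusted p = 0.0089; 0.13, 0.0571 and 0.0601 without each line) and from DE1 to DE2 by 0.62 ± 0.08 (limma, adjusted p = 4.94e-06). The step from PS to DE1, 0.15 ± 0.08, was not called. Mcm7 fell only from DE1 to DE2, by 0.37 ± 0.08 (limma, adjusted p = 0.001, and 0.0947 without 7H1). Mcm4 and Mcm5 fell from PS to DE1, by 0.44 ± 0.09 and by 0.84 ± 0.20 (limma, adjusted p = 0.00047 and 0.00167). Per kb of exon, the 6 subunits of the hexamer were not at equal levels. In EPI DMSO the mean per kb was 3002 for Mcm3, 2884 for Mcm7, 2310.3 for Mcm4, 2047 for Mcm6, 1804 for Mcm2 and 397 for Mcm5. In DE2 DMSO the order was Mcm7, Mcm4, Mcm3, Mcm6, Mcm2 and Mcm5, from 1744 to 194.

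Cdc6, the ATPase that loads MCM onto origins (chr11:98907801-98923940, plus strand), read 1324, 1731 and 1476 in EPI, 2031, 1951 and 2171 in PS, 1275, 973 and 1303 in DE1 and 1260.01, 848 and 1231 in DE2. Its PS libraries were above those of all other stages. It rose from EPI to PS by 0.45 ± 0.16 (limma, adjusted p = 0.0363; 0.177 without 7H, 0.287 without 7H2 and 0.11 without the PS libraries of 7H2) and fell from PS to DE1 by 0.80 ± 0.16 (limma, adjusted p = 0.00026). Cdt1, its partner in loading, fell from PS to DE1 by 0.33 ± 0.11 and from DE1 to DE2 by 0.42 ± 0.11 (limma, adjusted p = 0.018 and 0.0045). The first of these was not called without 7H1 or 7H2 (adjusted p = 0.0997 and 0.117) or without the PS libraries of 7H2 (0.0557), and the second not without 7H (0.0841). Gins1 and Gins2, parts of the activated helicase, ended at log2 differences of -1.17 ± 0.15 and -1.35 ± 0.17 from EPI to DE2 (limma, adjusted p = 1.45e-06 and 7.80e-07). Cdc45, the other part, fell by 0.79 ± 0.12 over the same span (limma, adjusted p = 6.80e-06). Exons of Gins2 overlap those of Gse1 on the other strand over 2758 bp, and those of Cdc45 overlap Ufd1 over 209 bp. Whether the counting used strand is not given in the labels, so reads of such partners cannot be told apart. Of the 39 genes, 14 had exons that overlap a gene on the other strand.

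Promoters of 4 genes are shown because their genes carried the main contrasts of these data: Cdc6 and Mcm6, which rose with dTAG13 in DE2, the mitotic kinase gene Cdk1, and the inhibitor gene Cdkn1b, which moved opposite to most of the set. The sequences are from RefSeq (GRCm38.p6), from 250 bases before to 30 bases after the annotated start, 5′ to 3′ on the gene's strand. They cover chr11:98907901-98908180, plus strand (Cdc6), chr1:128359676-128359955, minus strand (Mcm6), chr10:69352883-69353162, minus strand (Cdk1) and chr6:134920151-134920430, plus strand (Cdkn1b). Of 34 windows found for genes of the set, 25 had the bases after the start in an annotated transcript of the gene. The Mcm6 window did not, and it lies outside the gene coordinates given above. The Cdc6 window lies inside those of its gene. Capitals mark matches, on either strand, to the E2F words TTTCCCGC, TTTCGCGC, TTTGCCGC and TTTGGCGC or to the CHR word TTTGAA, an element of late cell cycle promoters.
Cdc6: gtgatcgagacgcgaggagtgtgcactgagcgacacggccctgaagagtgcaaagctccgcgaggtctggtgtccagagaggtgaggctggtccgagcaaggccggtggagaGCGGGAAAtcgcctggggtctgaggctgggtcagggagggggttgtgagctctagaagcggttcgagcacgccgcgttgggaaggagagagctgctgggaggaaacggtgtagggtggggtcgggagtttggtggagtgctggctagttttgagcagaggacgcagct
Mcm6: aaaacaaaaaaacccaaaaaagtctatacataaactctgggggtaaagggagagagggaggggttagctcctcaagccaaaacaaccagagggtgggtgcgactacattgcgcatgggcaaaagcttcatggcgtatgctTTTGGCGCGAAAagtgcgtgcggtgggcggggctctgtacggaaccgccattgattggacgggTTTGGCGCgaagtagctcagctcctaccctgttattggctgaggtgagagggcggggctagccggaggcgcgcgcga
Cdk1: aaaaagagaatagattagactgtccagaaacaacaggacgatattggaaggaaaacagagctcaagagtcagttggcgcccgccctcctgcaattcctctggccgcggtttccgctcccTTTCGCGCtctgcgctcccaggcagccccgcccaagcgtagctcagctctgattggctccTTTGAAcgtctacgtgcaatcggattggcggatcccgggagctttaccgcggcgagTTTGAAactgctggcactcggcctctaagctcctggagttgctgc
Cdkn1b: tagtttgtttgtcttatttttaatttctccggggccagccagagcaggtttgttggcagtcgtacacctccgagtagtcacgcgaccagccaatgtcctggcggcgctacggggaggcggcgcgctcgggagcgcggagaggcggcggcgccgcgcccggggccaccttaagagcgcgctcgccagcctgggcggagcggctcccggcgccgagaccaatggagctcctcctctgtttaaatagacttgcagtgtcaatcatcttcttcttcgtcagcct

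Cdc6 had 1 E2F word, starting 138 bases before the start. Mcm6 had 3, of which 2 overlap, and Cdk1 had 1 E2F word and 2 CHR words. The Cdkn1b window held none of these words. Promoters were found for 31 of the 39 genes. An E2F word was present in 22.6% (7 of 31) of them and in 2.16% of 27025 promoters of the same length, and the CHR word in 22.6% (7 of 31) against 17.4%. The CCAAT word was present in 67.7% (21 of 31) against 36.6%. TAATCC, the core word bound by OTX proteins, was in 0 of the 31 windows and in 6.86% of all promoters. A match is a description of the letters in the window.

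All 4 genes of the fork and of nucleotide supply fell from PS to DE1 and again from DE1 to DE2. Rrm2, the S-phase subunit of ribonucleotide reductase, read 9460.1, 9722 and 10570.2 in PS, 5380.3, 4011 and 4386 in DE1 and 4020.2, 2863 and 3402 in DE2. The PS libraries were all above the DE1 libraries, whereas DE1 and DE2 overlapped through the DE2 library of 7H. The differences were -1.12 ± 0.12 and -0.42 ± 0.12 (limma, adjusted p = 3.37e-07 and 0.00957), and the second was not called without 7H1 or 7H2 (adjusted p = 0.0661 and 0.0612) or without the DE2 DMSO library of 7H1 (0.0742). Rrm1, the large subunit, took another course and rose from EPI to PS by 0.38 ± 0.10 (limma, adjusted p = 0.00655, and 0.257 without 7H2) before it fell by 0.41 ± 0.10 and then fell by 0.57 ± 0.10 (limma, adjusted p = 0.00187 and 0.000121). Without 7H2 its fall from PS to DE1 was not called (adjusted p = 0.0772).

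Tyms, thymidylate synthase, read 1737, 1602 and 1499 in DE1 and 1329.9, 609 and 1022 in DE2. The DE2 library of 7H1 was the lowest of the 24, and the groups did not overlap. Tyms fell by 0.78 ± 0.19 over this step (limma, adjusted p = 0.003, and 0.0778 without 7H1). Its fall from PS to DE1, -0.57 ± 0.19 (limma, adjusted p = 0.0214), was not called without 7H2 or without the PS libraries of 7H2 (adjusted p = 0.28 and 0.113). Pcna, the sliding clamp of the fork, fell by 0.63 ± 0.12 from PS to DE1 and by 0.44 ± 0.12 from DE1 to DE2 (limma, adjusted p = 0.000245 and 0.0061). The second fall was not called without 7H, without 7H1, or without the DE2 DMSO library of 7H1 (adjusted p = 0.0602, 0.175 and 0.057). A processed copy, Pcna-ps2, is listed separately at 117 to 411, beside 4099 to 12126 for Pcna.

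The G1 cyclins and kinases held the widest changes of the set. Cdk6 (chr5:3341485-3531008, plus strand), a kinase partner of the D cyclins, read 5855, 4409.5 and 5340.4 in EPI, 2451, 2010.4 and 1487 in PS, 217, 105 and 117 in DE1 and 645, 381 and 1538 in DE2. The stages did not overlap from EPI to PS to DE1, and the DE2 libraries were above those of DE1. The log2 differences over the 3 steps were -1.41 ± 0.49, -3.80 ± 0.49 and 2.38 ± 0.49 (limma, adjusted p = 0.0402, 5.16e-06 and 0.000847). The first step was not called without 7H, without 7H2 or without the PS libraries of 7H2 (adjusted p = 0.2, 0.0959 and 0.147). Cdk4, the other kinase partner of the D cyclins, did not follow it. It read 15392, 15716 and 21699 in PS and 16625, 16340.1 and 19210.1 in DE1, a difference of 0.00 ± 0.13 that was not called (limma, adjusted p = 0.991). Per kb of exon, Cdk4 was at 4319.7 and Cdk6 at 372 in EPI DMSO, and they were at 5353 and 10.4 in DE1 DMSO. Exons of Cdk4 overlap Tspan31 over 641 bp and those of Cdk6 the antisense gene Gm17590 over 368 bp, both on the other strand.

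The 3 D cyclins, which activate CDK4 and CDK6, were not lowered at the same steps. Ccnd2 fell already from EPI to PS, while Ccnd1 and Ccnd3 first fell from PS to DE1. Ccnd2 read 4632, 4037 and 4692 in EPI, 2311, 1381 and 1387 in PS, 708, 657 and 594 in DE1 and 703, 277 and 404 in DE2. It fell without overlap at the first and second steps, with log2 differences of -1.44 ± 0.33 and -1.33 ± 0.33 (limma, adjusted p = 0.00339 and 0.00293, the former 0.077 without 7H2). Ccnd1 read 6669, 9039 and 6784 in EPI, 8141, 7155 and 8649 in PS and 2267, 1708 and 2199.9 in DE1. EPI and PS overlapped for this gene and PS and DE1 did not, with differences of 0.10 ± 0.27 (limma, adjusted p = 0.82) and -1.96 ± 0.27 (adjusted p = 7.15e-06). In DE2 it read 2478, 744 and 1923, and the library of 7H1 was lower than all others of the gene. Ccnd3 read 3402, 3097 and 3931 in PS, 978, 1005 and 1054 in DE1 and 1639, 1359 and 1709 in DE2. Its DE1 libraries were the lowest, and it fell by 1.77 ± 0.17 and rose again by 0.63 ± 0.17 (limma, adjusted p = 4.99e-08 and 0.00591, the latter 0.0766 without 7H). Exons of Ccnd1 overlap LTO1 over 1100 bp and those of Ccnd3 overlap Bysl over 361 bp on the other strand.

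**Figure D2:**
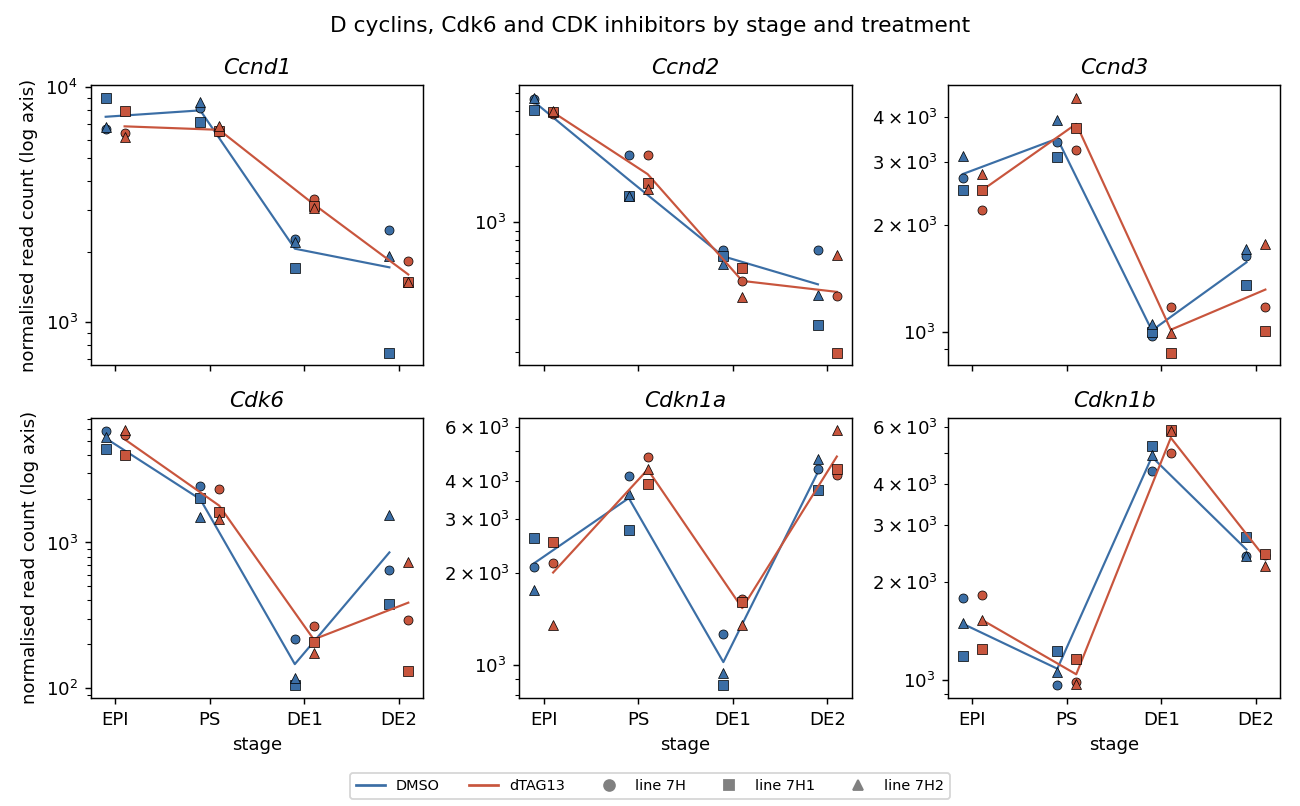
Normalised read counts (log axis) of Ccnd1, Ccnd2, Ccnd3, Cdk6, Cdkn1a and Cdkn1b at the 4 stages, with a point per library (symbol by cell line), colours for DMSO and dTAG13 and lines through the group means. Cdk6 reaches its lowest mean in DE1 (146 in DMSO), where Cdkn1b reaches its highest (4856).

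Ccne1, a cyclin E that activates CDK2, read 3879, 4862 and 4122 in EPI, 3113, 3059.99 and 3439.7 in PS, 1225, 1173 and 1174 in DE1 and 1655, 1244 and 1719.7 in DE2. The DE1 libraries were the lowest. Its differences were -0.42 ± 0.13, -1.43 ± 0.13 and 0.36 ± 0.13 (limma, adjusted p = 0.022, 2.46e-08 and 0.0349). The call from EPI to PS was lost when any 1 of the 3 lines was left out (adjusted p = 0.0533, 0.155 and 0.11), and that from DE1 to DE2 was lost without 7H or 7H2 (0.141 and 0.321). Ccne2, the other cyclin E, was not called over any DMSO step. In EPI its lines stood apart, with 699, 1579 and 717 in DMSO and 779, 1269.8 and 813 in dTAG13, the highest value being that of 7H1 each time. Line 7H1 was also the highest in PS DMSO, DE1 dTAG13 and DE2 dTAG13, but 7H was in PS dTAG13, DE1 DMSO and DE2 DMSO. In DE2 DMSO 7H1 was the lowest, with values of 957, 501 and 596. A difference between lines was not tested for Ccne2. Its exons overlap those of Ints8 over 609 bp on the other strand. Cdk2, the kinase partner of both, fell from PS to DE1 by 0.38 ± 0.09 (limma, adjusted p = 0.00172). E2f1, the S-phase transcription factor, fell from DE1 to DE2 by 0.46 ± 0.12 (limma, adjusted p = 0.00505; 0.1 without 7H and 0.0533 without 7H1).

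The 2 inhibitors moved in opposite directions at each step. Cdkn1b, which encodes p27 (chr6:134920401-134925513, plus strand), read 1788, 1179 and 1492 in EPI, 961, 1227 and 1053 in PS, 4396, 5251 and 4923 in DE1 and 2395, 2760.1 and 2396 in DE2. All DE1 libraries were above all others, and the DE2 libraries were above those of EPI. Its log2 differences were -0.45 ± 0.15, 2.17 ± 0.15 and -0.95 ± 0.15 (limma, adjusted p = 0.0262, 2.95e-10 and 3.06e-05). Cdkn1b was the only gene of the 39 that rose from PS to DE1. Cdkn1a, which encodes p21, a p53 target (chr17:29090976-29100727, plus strand), read 2097, 2597 and 1764 in EPI, 4145, 2768 and 3632 in PS, 1266, 859 and 942 in DE1 and 4366, 3729 and 4734 in DE2. The DE1 libraries were the lowest of the 4 stages. Its differences were 0.71 ± 0.21, -1.78 ± 0.21 and 2.08 ± 0.21 (limma, adjusted p = 0.0151, 6.94e-07 and 1.86e-07). The first steps of Cdkn1b and Cdkn1a were not called without 7H (adjusted p = 0.33 and 0.169), without 7H2 (0.257 and 0.135) or without the PS libraries of 7H2 (0.0728 and 0.0593).

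Among the mitotic cyclins and kinases, Ccna2, Ccnb1 and Cdk1 fell from PS to DE1. Ccna2, cyclin A, read 7332, 7438 and 7794 in PS and 4166, 3874 and 3784 in DE1. The groups did not overlap, and the difference was -0.93 ± 0.08 (limma, adjusted p = 1.08e-08). Its exons overlap Exosc9 over 510 bp on the other strand. Ccnb1, a cyclin B, fell by 0.68 ± 0.09 over this step without overlap and by 0.29 ± 0.09 from DE1 to DE2 (limma, adjusted p = 5.26e-06 and 0.0175; the latter 0.249 without 7H1, 0.0658 without 7H2 and 0.124 without the DE2 DMSO library of 7H1). Cdk1, their kinase, read 5286, 5057 and 6134 in PS, 4457, 3883 and 3791 in DE1 and 2893, 2276 and 2515 in DE2. No library overlapped between these stages, with differences of -0.44 ± 0.12 and -0.66 ± 0.12 (limma, adjusted p = 0.0054 and 0.000199; the former 0.172 without 7H2). Ccnb2, the other cyclin B, fell only from DE1 to DE2, by 0.41 ± 0.15 (limma, adjusted p = 0.0317, with 0.0641, 0.114 and 0.122 without each line and 0.086 without the DE2 DMSO library of 7H1).

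Of the 9 genes of chromosome segregation and proliferation, 7 fell from PS to DE1 and 4 from DE1 to DE2. The call of Bub1b from DE1 to DE2 was lost without 7H, 7H1 or 7H2 (limma, adjusted p = 0.0548, 0.24 and 0.133). It was also lost without the DE2 DMSO library of 7H1 (0.234). The call of Top2a from PS to DE1 was lost without 7H or 7H1 (limma, adjusted p = 0.0684 and 0.331). Plk1, the Polo kinase of mitotic entry, read 6996, 6689.6 and 7117 in PS and 3397, 3349.6 and 3297 in DE1. The DE1 libraries were within a narrow range below all PS libraries, and the difference was -1.05 ± 0.12 (limma, adjusted p = 4.61e-07). Bub1b, the checkpoint protein BUBR1, fell by 0.75 ± 0.11, Aurkb, a kinase of the chromosomal passenger complex, by 0.73 ± 0.13, Aurka, the centrosomal Aurora kinase, by 0.60 ± 0.11, and Cdc20, the activator of the anaphase-promoting complex, by 0.63 ± 0.15 (limma, adjusted p = 6.73e-06, 0.000127, 0.00022 and 0.00219; for Cdc20, 0.0627 without 7H2). Birc5, survivin, read 2203, 1919 and 1829.99 in DE1 and 1423, 1043 and 1154 in DE2. Every DE2 library was below every DE1 library, and the difference of -0.72 ± 0.13 was wider than that of its step from PS to DE1, -0.41 ± 0.13 (limma, adjusted p = 0.000141 and 0.0128; the latter 0.0782 without 7H1, 0.308 without 7H2 and 0.0807 without the PS libraries of 7H2). The difference between these 2 steps was not tested.

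Mki67, Top2a and Bub1, with 10.1, 9.01 and 4.35 kb of exon, had their lowest PS value in the dTAG13 library of 7H2. Mki67, the proliferation antigen Ki-67, read 10444, 12832 and 12194 in EPI DMSO, 8127, 8035 and 4609.96 in PS DMSO and 8411, 3883 and 2736 in PS dTAG13. The PS libraries of 7H2, and that of 7H1 with dTAG13, were the low ones. Mki67 fell from EPI to PS by 0.81 ± 0.27 in DMSO and by 1.54 ± 0.27 in dTAG13 (limma, adjusted p = 0.0298 and 0.00028). In DMSO it was not called without 7H1 or without 7H2 (adjusted p = 0.143 and 0.226) or without the PS libraries of 7H2 (-0.54, adjusted p = 0.0719). Top2a, the topoisomerase that untangles chromosomes, read 19945, 21819 and 16664 in PS DMSO and 21477, 16795 and 12019 in PS dTAG13. The lowest of these was again 7H2 with dTAG13, and its fall from EPI to PS in dTAG13, -0.48 ± 0.16 (limma, adjusted p = 0.0237), was not called without the PS libraries of 7H2, without 7H1 or without 7H2 (adjusted p = 0.17, 0.0855 and 0.377). Bub1, a kinase of the spindle checkpoint, read 4876, 5232 and 4279 and 4883, 3925 and 2685 in the same libraries, with the same library lowest. The other genes of the set with over 8 kb of exon differed among themselves in PS. Rrm1 (11 kb) read 8285, 8608 and 10087 with DMSO and 7684, 9440 and 8883 with dTAG13, highest in 7H2 only with DMSO. Ccnd3 (8.78 kb) read 3402, 3097 and 3931 and 3227, 3716 and 4524, highest in 7H2 both times. Cdk6 (14 kb) read 2451, 2010.4 and 1487 and 2315, 1612 and 1450, lowest in 7H2 both times. Ccnd2 (9.41 kb) read 2311, 1381 and 1387 and 2305, 1626 and 1509, highest in 7H both times. The part of the library differences in these values was not tested. Top2a later fell by 0.50 ± 0.16 and Bub1 by 0.51 ± 0.15 from DE1 to DE2 (limma, adjusted p = 0.0159 and 0.0117, and 0.112 and 0.0674 without the DE2 DMSO library of 7H1). Without 7H1 neither was called (adjusted p = 0.185 and 0.172), nor was Bub1 without 7H (0.0652).

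**Figure D3:**
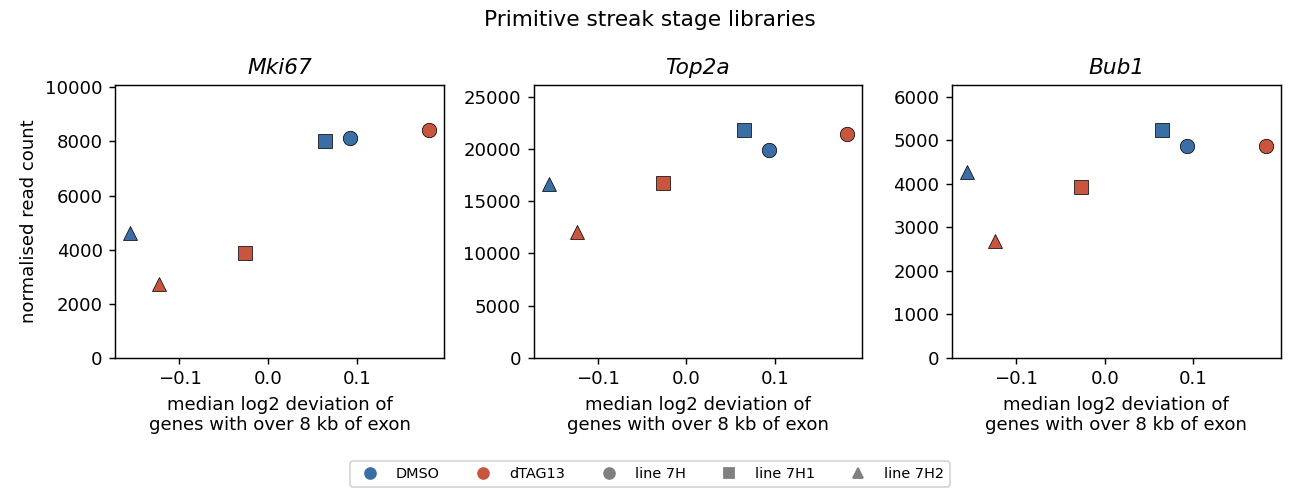
Normalised read counts of Mki67, Top2a and Bub1 in the 6 PS libraries against the median log2 deviation, from the group's mean, of genes with over 8 kb of exon in the same library; colour marks the treatment and symbols the cell line. For Mki67 the dTAG13 library of 7H1 at -0.0263 reads 3883, below the DMSO library of 7H2 farther left. The libraries at -0.156 and -0.123 on the x axis read 4609.96 and 2736, and that at 0.182 reads 8411.

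Further genes of the same pathways, grouped in fixed lists, were read from the same fit. The genes named from each list were picked among those called with the smallest p. The counts below stand beside 44.1% of all genes called from PS to DE1, 21.7% higher and 22.4% lower. From DE1 to DE2 the share was 39.3%, 20.2% higher and 19.1% lower, and from EPI to DE2 53.9%, 27.4% higher and 26.6% lower. Of 42 other replication genes, 0 rose and 24 fell from PS to DE1, 0 rose and 27 fell from DE1 to DE2 and 0 rose and 39 fell from EPI to DE2. Lig1, the ligase of Okazaki fragments, fell by 1.60 ± 0.08 from PS to DE1, and Rpa1, the single-strand binding protein, by 1.26 ± 0.12 (limma, adjusted p = 2.83e-12 and 5.07e-08). Of 41 other mitosis genes, 1 rose and 28 fell from PS to DE1, 4 rose and 13 fell from DE1 to DE2 and 0 rose and 33 fell from EPI to DE2. Cdc25a, a phosphatase that activates CDKs, fell by 1.03 ± 0.08 from PS to DE1, and Ncapd2, a condensin subunit, by 1.51 ± 0.10 from EPI to DE2 (limma, adjusted p = 1.19e-09 and 4.38e-11). Of 19 other G1 and RB-E2F genes, 3 rose and 8 fell from PS to DE1 and 3 rose and 4 fell from DE1 to DE2. E2f4 fell by 1.12 ± 0.09 from PS to DE1, while the repressor E2f7 fell by 1.61 ± 0.20 there and rose by 1.07 ± 0.20 from DE1 to DE2 (limma, adjusted p = 3.37e-09, 1.38e-06 and 0.00022).

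Other inhibitors and p53 target genes were read in the same way, beside the same shares of all genes. These were 44.1% from PS to DE1, 21.7% higher and 22.4% lower, and 39.3% from DE1 to DE2, 20.2% higher and 19.1% lower. Of 6 other CDK inhibitors, 0 rose and 2 fell from PS to DE1 and 3 rose and 0 fell from DE1 to DE2. Cdkn2b, an inhibitor of CDK4 and CDK6, read 247, 185 and 186 in DE1 and 1844, 1199 and 1899 in DE2. It was higher in every DE2 library, by 2.98 ± 0.38 (limma, adjusted p = 5.54e-06). Cdkn2a, another gene of that inhibitor family, rose by 2.56 ± 0.44 (limma, adjusted p = 0.000131). Of 18 p53 target genes, 4 rose and 11 fell from PS to DE1 and 10 rose and 1 fell from DE1 to DE2. Those that rose at the second of these steps included Plk2 by 2.30 ± 0.29, Eda2r by 1.51 ± 0.18 and Btg2 by 1.28 ± 0.17 (limma, adjusted p = 3.69e-06, 1.59e-06 and 6.56e-06).

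The effect of OTX2 depletion was then read at each stage as dTAG13 minus DMSO. In EPI, limma called 0 of the 39 genes, and 0 had an unadjusted p under 0.05, where 0.0865% of all genes were called, 0% higher and 0.0865% lower. Log2 differences ran from -0.18 (Ccnd2) to 0.15 (Cdc6), with a median standard error of 0.13. In PS, 0 were called and 2 had an unadjusted p under 0.05, with a background of 0.219%, 0.0865% higher and 0.133% lower, and differences ran from -0.58 (Mki67) to 0.33 (Cdkn1a). The fit with the cell line as a block also called 0 at either stage (background 0.572% in EPI and 2.41% in PS), and so did each of the other alternatives. The dTAG13 libraries did not overlap the DMSO libraries for 3 genes in EPI (Mcm3, Ccnd2 and Top2a, all lower; background 8.24%, 3.7% higher and 4.54% lower) and for 2 in PS (Ccnd1 and Ccna2, both lower; background 12.6%, 6.77% higher and 5.87% lower). These values do not show that the groups were alike.

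**Figure D4:**
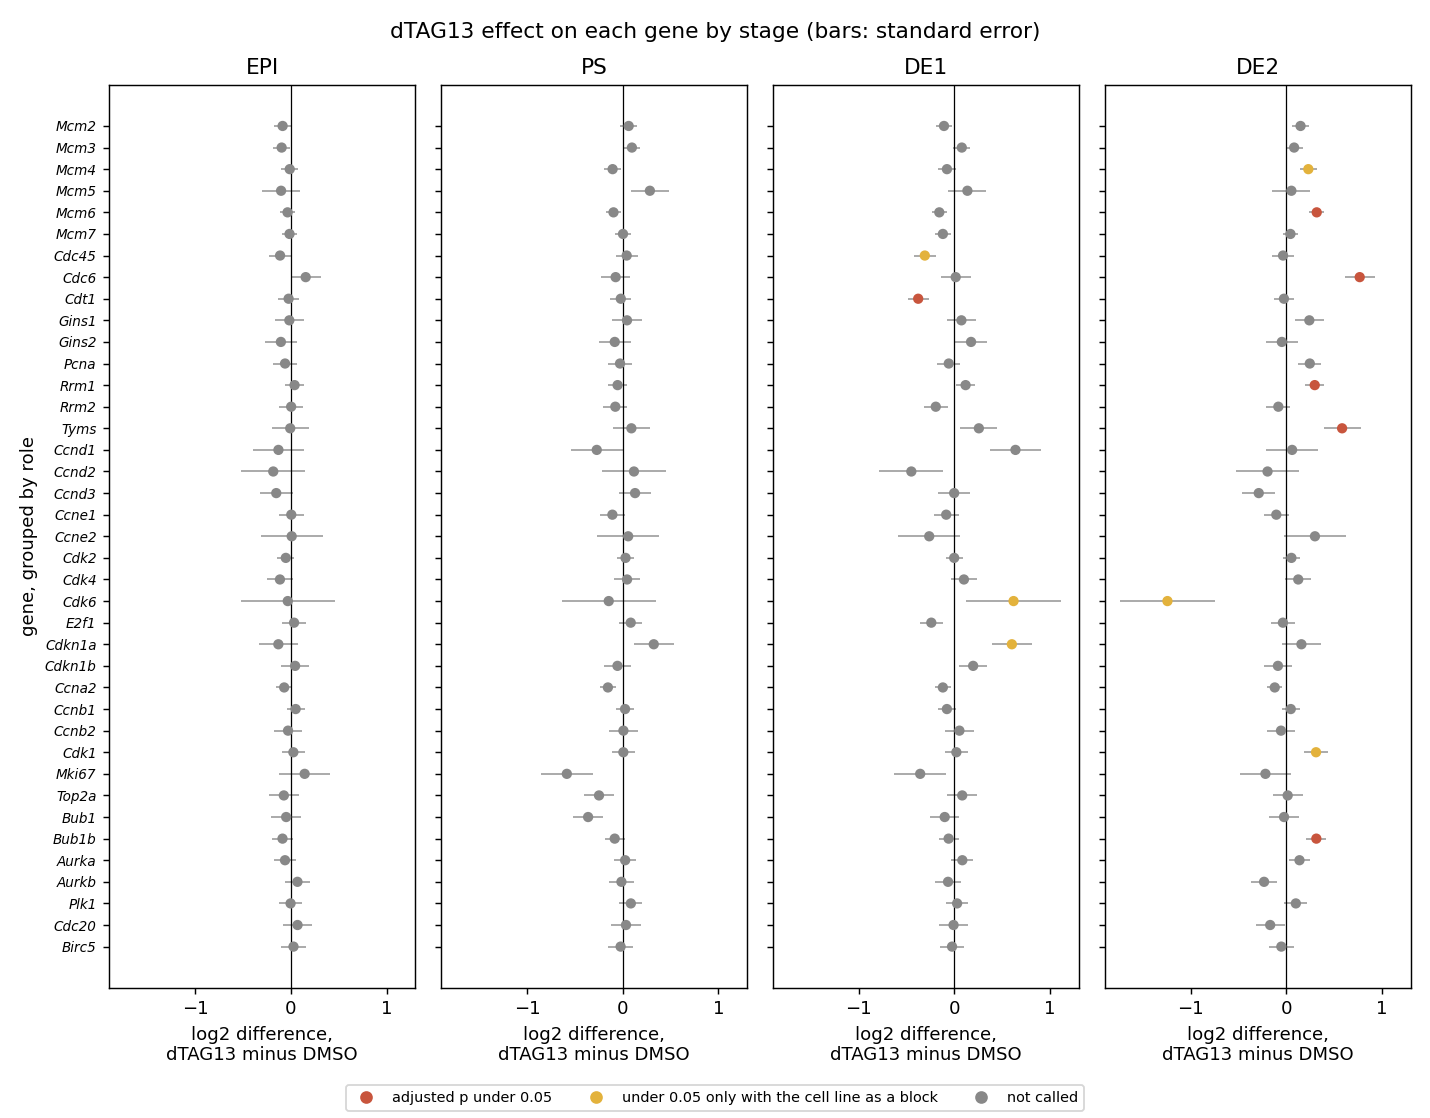
Log2 difference, dTAG13 minus DMSO, of each of the 39 genes at the 4 stages, with bars of 1 standard error; red marks an adjusted p under 0.05, and yellow marks genes called only in the fit with the cell line as a block. No gene is red in EPI or PS, 1 is in DE1 (Cdt1, -0.38) and 5 are in DE2, of which Cdc6 (0.77) is the farthest from 0.

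In DE1, 0 of the 39 genes rose and 1 fell, against 7.76% of all genes called, 3.74% higher and 4.02% lower, and the median difference was -0.01. Cdt1 (chr8:122568015-122573554, plus strand), which loads MCM with CDC6, read 1979, 1766 and 1924 with DMSO and 1584, 1448 and 1332 with dTAG13. Each dTAG13 library was below each DMSO library, and the difference was -0.38 ± 0.11 (limma, adjusted p = 0.0347). It was not called without 7H, 7H1 or 7H2 (adjusted p = 0.0989, 0.158 and 0.37) or under either other scaling. With the cell line as a block, 4 of the 39 genes were called in DE1, beside 15.8% of all genes, 8.09% higher and 7.71% lower. These were Cdt1 and Cdc45, which were lower (-0.38 and -0.31, adjusted p = 0.00472 and 0.0213), and Cdk6 and Cdkn1a, which were higher (0.62 and 0.60, adjusted p = 0.00461 and 0.0021). Cdkn1a read 1266, 859 and 942 with DMSO and 1643, 1609 and 1352 with dTAG13, without overlap. Cdk6 read 217, 105 and 117 and 265, 208 and 175, and it was higher within each line although the groups overlapped. Ccnd1 read 2267, 1708 and 2199.9 with DMSO and 3349, 3126 and 3072 with dTAG13, with every dTAG13 library above every DMSO library. Its difference of 0.64 ± 0.27 was not called without the block (limma, adjusted p = 0.177) or with it (0.0624). In all, the groups did not overlap for 9 of the 39 genes, 2 of them higher and 7 lower, where the background was 33.1% of all genes, 16.4% higher and 16.7% lower. Marker lists moved between the same groups. The 8 epiblast markers, which include Otx2 itself, summed to 62129.5 to 65749.5 with DMSO and 43189.6 to 44919 with dTAG13. The 10 streak markers summed to 93769 to 101988 and 74277 to 77994, and the 10 endoderm markers to 127355 to 152810 and 93943 to 121549. These 3 lists were lower with dTAG13 without overlap. The 8 mesoderm markers, of which Foxf1 and Msgn1 were under 5, summed to 401 to 524 and 990.1 to 1347 and were higher without overlap. Their part in the values of cell cycle genes was not tested.

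In DE2, 5 of the 39 genes rose with dTAG13 and 0 fell, against 17% of all genes called, 8.65% higher and 8.31% lower. The median difference was 0.05, beside 0.00 for all genes. Cdc6, the origin-loading ATPase, read 1260.01, 848 and 1231 with DMSO, and 1862, 1962 and 1781 after depletion. Each dTAG13 library was above each DMSO library, and it was also higher within each line, by 0.56, 1.21 and 0.53 on the log2 scale. The difference of 0.77 ± 0.16 was called (limma, adjusted p = 0.00137) and was called again under all 12 alternative settings. Without the DE2 DMSO library of 7H1, the lowest of the 6, it was 0.58 (adjusted p = 0.0138). With dTAG13 the DE2 libraries of Cdc6 lay above all of its EPI DMSO libraries, but they overlapped its EPI dTAG13 libraries (1355, 1929 and 1786).

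Mcm6, a subunit of the helicase that CDC6 loads, read 5741, 5428 and 5737 with DMSO and 6729, 8019 and 6434 with dTAG13. The groups did not overlap, and the highest library was that of 7H1 with dTAG13. It rose by 0.32 ± 0.08 (limma, adjusted p = 0.00831), and was not called without 7H1 (0.20, adjusted p = 0.333). The other 5 subunits of the hexamer were not called, with differences from 0.04 (Mcm7) to 0.23 (Mcm4). Rrm1, the large ribonucleotide reductase subunit, read 5269, 4112 and 4347 and 5906, 5660.4 and 5238, Tyms 1329.9, 609 and 1022 and 1541, 1615 and 1122, and Bub1b 2752, 2138 and 2742 and 2878, 3436 and 3144. The DMSO library of 7H1 was the lowest for all 3 genes, and the groups overlapped for Rrm1 and Tyms but not for Bub1b. Their differences were 0.30 ± 0.10, 0.58 ± 0.19 and 0.32 ± 0.11 (limma, adjusted p = 0.0416, 0.0417 and 0.044). Without that library none of the 3 was called (0.23, 0.27 and 0.19, adjusted p = 0.195, 0.311 and 0.267), nor without 7H1 (adjusted p = 0.432, 0.698 and 0.645) or without 7H2 (0.159, 0.0703 and 0.132). In a fit of the DE2 groups alone, Cdc6 was the only one of the 5 called, beside 10.5% of all genes. Without the DE2 DMSO library of 7H1, 3 genes were called in DE2: Cdc6 and Mcm6, which were higher, and Cdk6, which was lower. Of all genes, 11.8% were called in that fit.

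Cdk6 had the widest difference of the 39 genes in DE2, and the lines differed widely in its level. It read 645, 381 and 1538 with DMSO and 293, 132 and 733 with dTAG13. Line 7H2 was the highest and 7H1 the lowest under both treatments, so that the groups overlapped, while the value with dTAG13 was lower within each line, by 1.14, 1.52 and 1.07 on the log2 scale. The difference of -1.24 ± 0.49 was not called without a block (limma, adjusted p = 0.0955) and was called with the cell line as a block (adjusted p = 9.52e-06) and without the DE2 DMSO library of 7H1 (-1.70, adjusted p = 0.0348). With the block, 8 of the 39 genes were called in DE2, beside 27.5% of all genes, 14.1% higher and 13.4% lower. Besides Cdk6 these were the 5 genes above and Mcm4 and Cdk1, which were higher (0.23 and 0.31, adjusted p = 0.0469 and 0.0213). The groups did not overlap for 5 of the 39 genes, Mcm2, Mcm6, Cdc6, Cdk1 and Bub1b, all higher, where the background was 31.7% of all genes, 16.3% higher and 15.4% lower. The inhibitors were not called in DE2, at 0.16 ± 0.21 for Cdkn1a and -0.09 ± 0.15 for Cdkn1b (limma, adjusted p = 0.675 and 0.755). Stage markers, with Otx2 itself in the epiblast list, moved between the same groups. Summed streak markers were 44162 to 67590 with DMSO and 17950.4 to 27979.9 with dTAG13 in DE2, epiblast markers 49414 to 58412 and 37266 to 43879, both without overlap, and endoderm markers 127933 to 182560 and 113136 to 144717. Their part in the differences of cell cycle genes was not tested.

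**Figure D5:**
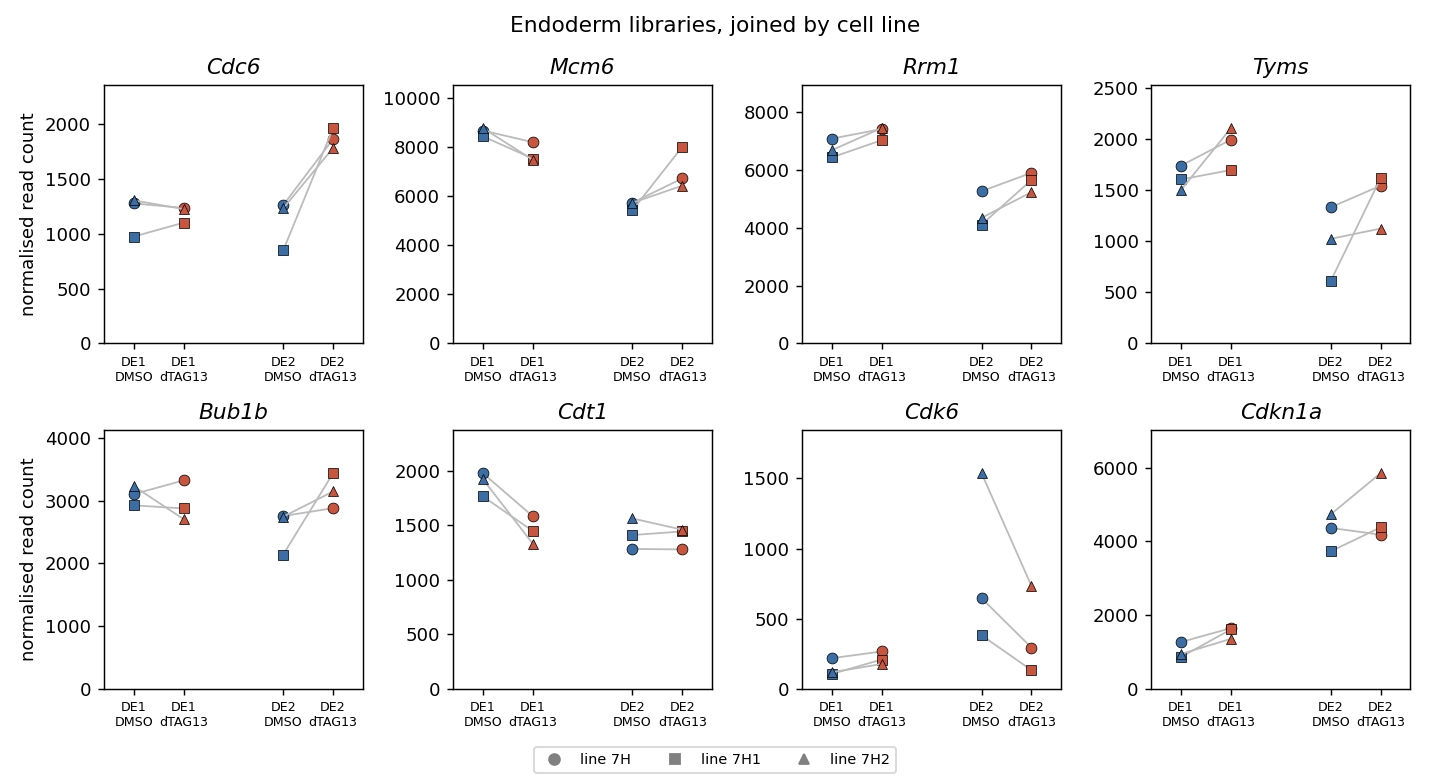
Normalised read counts in the DE1 and DE2 libraries for Cdc6, Mcm6, Rrm1, Tyms, Bub1b, Cdt1, Cdk6 and Cdkn1a, blue for DMSO and red for dTAG13, with grey lines joining the DMSO and dTAG13 libraries of a cell line. Cdc6 is higher with dTAG13 in all 3 lines in DE2, and Cdk6 is lower in all 3, from 1538 to 733 in 7H2.

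Whether the dTAG13 effect itself differed between successive stages was tested as an interaction. From EPI to PS, limma called 0 of the 39 genes (0 with an unadjusted p under 0.05; background 0.0133%, 0.00665% higher and 0.00665% lower), and from PS to DE1 it called 0 (3 unadjusted; background 2.14%, 0.818% higher and 1.32% lower). From DE1 to DE2 it called 2, Mcm6 and Cdc6, against 5.95% of all genes, 2.92% higher and 3.03% lower. The effect on Mcm6 went from -0.16 in DE1 to 0.32 in DE2, a difference of 0.48 ± 0.11 (limma, adjusted p = 0.0146), and that on Cdc6 from 0.01 to 0.77, a difference of 0.76 ± 0.22 (adjusted p = 0.0443). Neither was called when any single line was left out (adjusted p of 0.0784, 0.318 and 0.108 for Mcm6 and 0.114, 0.203 and 0.222 for Cdc6). Cdc6 was also not called without the DE2 DMSO library of 7H1 (adjusted p = 0.117) or under either other scaling. Without that library Ccnd1 was called, at -1.09 (adjusted p = 0.00404), with an effect of 0.64 in DE1 and 0.06 in DE2 over all libraries. With the cell line as a block, 4 genes were called from DE1 to DE2, Mcm6, Cdc6 and Cdt1 higher and Cdk6 lower, beside 15% of all genes, 7.62% higher and 7.4% lower. For Cdk6 the effect was 0.62 in DE1 and -1.24 in DE2, a difference of -1.86 (adjusted p = 3.12e-05, and 0.131 without the block). Cdk6 was also called from PS to DE1 with the block, at 0.76 (adjusted p = 0.0225), where 6.34% of all genes were called.

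Among other genes of these pathways, Myc had the widest dTAG13 effects of those called. Myc, which drives growth and S-phase entry, read 1602, 1881 and 1995 with DMSO and 264, 244 and 206 with dTAG13 in DE1, and 1497, 1723 and 1635 and 455, 189 and 431 in DE2. It was lower with dTAG13 in every library at both stages, with differences of -2.93 ± 0.22 and -2.27 ± 0.22 (limma, adjusted p = 1.04e-08 and 2.16e-07). Its paralogue Mycn was higher, by 0.83 ± 0.22 in DE1 and 0.66 ± 0.22 in DE2 (limma, adjusted p = 0.0211 and 0.0461). The Mycn call in DE1 was lost without 7H1 or 7H2 (adjusted p = 0.103 and 0.236) and that in DE2 when any 1 line was left out (0.0552, 0.332 and 0.0943) or without the DE2 DMSO library of 7H1 (0.11). In all, 2 of 19 other G1 and RB-E2F genes were called in DE1 and 3 in DE2 (10.5% and 15.8%, beside 7.76% and 17% of all genes), the last being E2f5 at 0.41 ± 0.10 (adjusted p = 0.00496, with 0.106 and 0.0759 without 7H1 and 7H2).

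Of 42 other replication genes, 1 rose and 3 fell with dTAG13 in DE1, and 3 rose and 0 fell in DE2. The shares called, 9.52% and 7.14%, stand beside 7.76% and 17% of all genes. Chaf1b, a subunit of the chromatin assembly factor at the fork, read 1686, 1488 and 1736 with DMSO and 3602, 3036 and 2117 with dTAG13 in DE2. It was higher with dTAG13 in every line, by 0.80 ± 0.14 (limma, adjusted p = 0.000442, and 0.0623 without 7H1). Ung, the uracil glycosylase, was lower in DE1 and higher in DE2, at -0.45 ± 0.12 and 0.57 ± 0.12 (limma, adjusted p = 0.0256 and 0.00243). Its DE1 call was lost when any 1 line was left out (adjusted p = 0.166, 0.169 and 0.132) and its DE2 call without 7H1 (0.243). Orc1, the large subunit of the origin recognition complex, fell in DE1 by 0.73 ± 0.11, and Rpa1 rose there by 0.57 ± 0.12 (limma, adjusted p = 0.000265 and 0.00393, the latter 0.122 without 7H2). Of 41 other mitosis genes, 0 rose and 2 fell in DE1, and 2 rose and 2 fell in DE2, which is 4.88% and 9.76% of the list and below the share of all genes called at both stages. Mybl2, a MYB factor that binds the MuvB complex at late cell cycle genes, fell in DE2 by 0.80 ± 0.11 (limma, adjusted p = 2.24e-05) and in DE1 by 0.47 ± 0.11 (adjusted p = 0.00807, and 0.0635, 0.172 and 0.0606 without each line). It moved opposite to Cdc6 in DE2.

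Cdkn2b was the only gene among 6 other CDK inhibitors called, higher with dTAG13 in DE2 by 1.70 ± 0.38 (limma, adjusted p = 0.00379, and 0.0736 without 7H2). It read 1844, 1199 and 1899 with DMSO and 3682, 5178 and 7596 with dTAG13. Of 18 p53 target genes, 4 rose and 0 fell in DE1, and 2 rose and 0 fell in DE2. These are 22.2% and 11.1% of the list, beside 7.76% and 17% of all genes. Of the 4 in DE1, Eda2r, Phlda3 and Trp53inp1 were not called without 7H1 (limma, adjusted p = 0.194, 0.214 and 0.108). Phlda3 and Trp53inp1 were also not called without 7H (0.14 and 0.0913), nor was Phlda3 without 7H2 (0.0798). Plk2 rose in DE1 by 1.27 ± 0.29 and in DE2 by 1.10 ± 0.29 (limma, adjusted p = 0.00748 and 0.0118; 0.116 without 7H2 in DE1, and 0.157 and 0.095 without 7H1 and 7H2 in DE2, with 0.0895 without the DE2 DMSO library of 7H1). Aen, an apoptosis nuclease, rose in DE2 by 0.58 ± 0.10 (limma, adjusted p = 0.000198). In EPI and in PS, 0 genes of these 5 lists were called by limma.

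The steps between stages were also read in the dTAG13 libraries alone. Since dTAG13 was given for 21 h from the EPI, PS or DE1 stage, these groups need not form a continuous course without OTX2. Cells of a later dTAG13 group may not have been depleted at the earlier stage. From EPI to PS, 6 of the 39 genes rose and 9 fell (background 33%, 16.9% higher and 16.1% lower), and from PS to DE1 1 rose and 29 fell (background 44.5%, 22.7% higher and 21.7% lower). From DE1 to DE2, 3 rose and 14 fell (background 38.6%, 19.6% higher and 19.1% lower), with a median of -0.21. Over this last step Cdc6 read 1234, 1099.97 and 1224 in DE1 and 1862, 1962 and 1781 in DE2. It rose by 0.66 ± 0.16 without overlap (limma, adjusted p = 0.00205), whereas in DMSO its difference over the step was -0.10 ± 0.16 (adjusted p = 0.65). Cdk6, which rose in DMSO, had a difference of 0.52 ± 0.49 that was not called with dTAG13 (limma, adjusted p = 0.437). The tests of these contrasts between treatments are the interactions given above. Counts in dTAG13 depended on the lines, as did the shares of all genes called. From EPI to PS, 14, 10 and 4 genes were called without 7H, 7H1 and 7H2, and 7 without the PS libraries of 7H2. The shares of all genes were 30.4%, 22%, 10.6% and 23.7%. From DE1 to DE2, 10, 13 and 7 were called without each line, beside 30.7%, 28% and 24% of all genes.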

How the data were processed

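The authors deposited a normalised signal per gene, 18205 genes by 24 libraries. The submitters' processing notes name mm10 and DESeq2. Aligner, counting tool and strandedness were not given in the sources used here. An estimated 17.2 to 33.9 M reads per library followed from the smallest steps between values, but of values under 6 only 58.5 to 72% lay within 0.1 of whole reads, so no count model was used.

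The model was limma 3.58.1, with trend and robust empirical Bayes, run in R 4.3.3 with statmod 1.5.0 on log2(value + 1), which understates fold changes of low genes. The fit held 8 groups and 24 libraries, with 16 residual degrees of freedom. The filter kept 15037 genes that reached 10 in 3 or more libraries, and p-values were two-sided and adjusted within each of 14 comparisons. Standard errors are those of the moderated fit. Replicate numbers stand for cell lines and so pair the samples: deviations from group means correlated at 0.0703 to 0.382 within a line across treatments, and in 12 of 12 cases the own line was highest. The block was a line term within each stage for dTAG13 effects and a common line term for steps between stages. Exon lengths and coordinates are from GENCODE M21 (GRCm38). Named genes were the 39 members and, from each further list, at most 4 called genes per comparison with the smallest p. The members and lists were chosen with earlier results of these data known. There were 12 alternative settings and 2 more added after seeing the data, which leave out the DE2 DMSO library of 7H1 or the PS libraries of 7H2. The summed neural marker list is not reported here. The limma step was tested on simulated data. Tables and figures used Python 3.11.15, pandas 2.3.3, numpy 2.4.6 and matplotlib 3.10.9.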

Additional observations from a re-analysis of the deposited data

Results flagged for a closer look

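Among the named genes of the set and of the further lists, limma called a changed dTAG13 effect between neighbouring stages for 10. Of all 15037 genes tested, 2 were called from EPI to PS, 322 from PS to DE1 and 895 from DE1 to DE2. These are shares of 0.0133%, 2.14% and 5.95%. From PS to DE1 the effect on Myc changed by -2.37 on the log2 scale (adjusted p = 0.000118), that on Mycn by 1.32 (0.0273) and that on the p53 target Eda2r by 0.99 (0.0433). Mycn was not called without 7H1, without 7H2 or without the PS libraries of 7H2 (adjusted p = 0.167, 0.364 and 0.0808), nor was Eda2r without 7H, 7H1, 7H2 or those libraries (0.177, 0.594, 0.0835 and 0.075).

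From DE1 to DE2 the effect changed by 0.48 for Mcm6 and 0.76 for Cdc6. It changed by 1.01 for Ung (limma, adjusted p = 0.00142), 0.77 for Chaf1b (0.0274), 0.45 for Cdc25a (0.014), 0.86 for Espl1, the separase (0.0229), and 0.63 for Aen (0.00836). Without 7H1 none of these 5 was called (adjusted p = 0.108, 0.362, 0.279, 0.138 and 0.171). Without 7H, Chaf1b, Cdc25a, Espl1 and Aen were not called (0.215, 0.0504, 0.125 and 0.145), and without 7H2, Cdc25a and Espl1 were not (0.225 and 0.105). Chaf1b was also not called without the DE2 DMSO library of 7H1 (0.0689).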

How the results depend on the processing

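No called result among the named genes changed direction under any alternative. With values rescaled to equal totals, 0 of the 39 genes were called for dTAG13 in DE1 and 1 for its difference from DE1 to DE2. The shares of all genes were 8.13% and 5.92%. With quantile normalisation the counts were 0 and 1, and 26 from DE1 to DE2 in dTAG13 (7.89%, 5.39% and 38.8% of all genes). The replicate block gave 4 in DE1, 8 in DE2, 1 for the difference from PS to DE1 and 4 for that from DE1 to DE2. Of all genes it called 15.8%, 27.5%, 6.34% and 15%. The block moved no other count of the 39 genes by over 1.5 times. Plain empirical Bayes gave 2 in DE2 and 1 for the difference from DE1 to DE2 (16.1% and 5.53% of all genes). Fits of the compared groups alone gave 4 in DE1, 1 in DE2, 8 from EPI to PS in dTAG13, 1 for the difference from PS to DE1 and 1 for that from DE1 to DE2. The shares of all genes in these fits were 15.4%, 10.5%, 19%, 3.4% and 7.21%. Leaving out each line in turn gave 0 to 0 in DE1 and 1 to 5 in DE2, beside 2.53% to 4.64% and 6.66% to 11.8% of all genes. For steps it gave 0 to 6 (EPI to PS), 22 to 29 (PS to DE1), 14 to 20 (DE1 to DE2) and 35 to 36 (EPI to DE2) in DMSO. The shares of all genes were 8.93% to 20.5%, 31.4% to 36.4%, 26% to 30.8% and 42.9% to 46.7%. In dTAG13 it gave 4 to 14, 24 to 32 and 7 to 13 (10.6% to 30.4%, 30.6% to 39.1% and 24% to 30.7% of all genes). For the difference from DE1 to DE2 it gave 0 to 1 (1.13% to 2.11%). These fits have 2 libraries a group. Without the DE2 DMSO library of 7H1, 3 genes were called in DE2 and 19 from DE1 to DE2 in dTAG13 (11.8% and 39% of all genes). Without the PS libraries of 7H2, 5 and 7 were called from EPI to PS in DMSO and dTAG13 (20.7% and 23.7% of all genes). The cause of these changes was not tested beyond the fewer libraries. Pseudocounts of 0.5 and 5, no filter and a filter of at least 50 moved no count by over 1.5 times. From EPI to DE2, 35 to 36 genes were called under every setting run, beside 42.9% to 59.3% of all genes. Depth per library is known only as an estimate.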
